A study of Drosophila melanogaster with 2 samples.

Results

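Of the 30000 entries that the authors' pooled peak list holds for l(3)neo38-GFP, 1427 had a summit in the coding part of an exon and overlapped no interval of the authors' thresholded list. A summit is the position within an interval where the authors placed the peak. The members were chosen by pooled signal, through the thresholded list, and by summit position. They were taken from the 24568 pooled entries that overlapped none of the 3953 thresholded intervals. A member's summit lay in annotated coding sequence, in no annotated 5' UTR, and more than 500 bp from every annotated transcript start. The members made up 5.81% of these weaker entries (95% exact binomial interval 5.52 to 6.11%). They lay in 1038 genes, and no summit lay in the coding sequence of more than 1 gene. Such intervals cover counting error over entries only.

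The data are chromatin immunoprecipitation with sequencing (ChIP-seq) of l(3)neo38 in Drosophila melanogaster, with 2 biological replicates and no second group. The labels describe a strain that stably expressed l(3)neo38 with a GFP tag at its C terminus, and an anti-GFP antibody was used for the precipitation. Whole embryos of mixed sex, collected over 0 to 24 h, were used, so every entry averages over stages and cell types, and the chromatin was sonicated to 200 to 800 bp. Untagged embryos and other conditions were not analysed here, so the comparisons are between places in the genome and between the replicates.

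l(3)neo38 encodes a C2H2 zinc finger protein, a class whose finger repeats read DNA bases. Transcription factors are mostly described at promoters and enhancers, with coding exons as a minor place. In an exon the same bases also spell the protein, and fly coding sequence is richer in G and C than introns and carries codon repeats such as those for glutamine. The lists that enter the irreproducible discovery rate (IDR) procedure are called permissively, so that background stands beside peaks in them, and the procedure keeps those that rank alike in the replicates.

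The 5 strongest members with a replicate summit within 100 bp in both replicate lists are shown first, as 30 bases around the summit, because they hold the sequence at the upper end of the members. They come from the RefSeq release 6 genome sequence (dm6), plus strand, 5' to 3'. Capitals mark runs of at least 5 G or C letters, and 3 of the 5 windows hold such a run.
nmo (chr3L:7980843-7980872): cagggtggtgctGCCGGtggtGCGCCacag
Nrg (chrX:8549217-8549246): ccccactgctGCCCCGCCCtcctacgaact
Hph (chr3R:5257605-5257634): attCCGGCtcccactccgcatccaaatcgg
CG5895 (chr3L:16037124-16037153): cgcgattatgtaaatttggaaatatttaat
bif (chrX:11681936-11681965): agaagtcaggagagggagatggtgcgatat

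The next windows show members with a CAG repeat, the letter pattern that was most frequent among the repeats searched. The pattern CAGCAGCAG, or CTGCTGCTG on the other strand, is in capitals. It stood within 50 bp of the summit in 94 of the 1427 members.
fend (chrX:9134034-9134063): gctgttgggtCAGCAGCAGctcctggactg
Scr (chr3R:6841793-6841822): gttgctgttgCTGCTGCTGCTGcaggagca

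The C-rich pattern CCCACCCC, or GGGGTGGG on the other strand, was far rarer among the members, with 9 of 1427 holding it. The 3 shown have it in capitals. The last line is the member in l(3)neo38 itself, which holds neither pattern in the letters shown.
tna (chr3L:10871555-10871584): gccccatatcCCCACCCCcagatgcacatg
gl (chr3R:18369843-18369872): tccctgattgCCCACCCCcgtgggatagta
Shaw (chr2L:3726785-3726814): gccccgtataCCCACCCCcctggcagccac
l(3)neo38 (chr3R:11769115-11769144): gagtgagctgctccttgcgcttgaaggact

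The replicate libraries stood apart in how much coding sequence their own lists held. Under the same rule, the list of replicate 1 held 780 weaker coding entries among 24802 weaker entries (3.14%, 2.93 to 3.37%). The list of replicate 2 held 2840 among 24540 (11.6%, 11.2 to 12%). Both lists have 30000 entries, and the depth of each library is unknown. The pooled share of 5.81% therefore lies between 2 unlike replicates. Coding share, GC content, nearness to thresholded intervals, CCCACCCC and CAGCAGCAG shares and several gene-list densities are also given from each replicate's own list. The change of the coding share with rank, GC content crossed with distance, and motif shares within GC bands were described from the pooled list alone. So were the members of single genes, position along the coding sequence and the chromosome arms.

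The signal value of an entry is the authors' own measure of peak strength, and entries were ranked by it within a list only. Since it chose the members through the thresholded list, it is given as a description. The members' pooled signal had a median of 39.4, with an interquartile range of 34.3 to 48.0 and a span of 30.9 to 139.2. The weaker entries of other places were stronger at the median, with 56.3 at promoters, 49.8 in introns and 48.6 between genes. The weaker entries in 3' UTRs had a median of 44.9. Weaker promoter entries are those with a summit within 500 bp of a transcript start.

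Just inside the threshold of the rule, the strongest members lay in CG5895 with a pooled signal of 139.2 at rank 4012, nmo with 125.9 at rank 4712 and Nrg with 125.4 at rank 4738. Just outside it, the lowest thresholded summits in coding exons lay in pb with 144.8 at rank 3751, smal with 157.4 at rank 3239 and CG18599 with 161.6 at rank 3091. In all, 25 thresholded summits lay in coding exons, which is 0.632% of the thresholded list.

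The share of coding summits was larger with each step down the pooled list. It was 0.632% among ranks 1 to 3953, 0.880% among ranks 3954 to 8953 and 2.26% among ranks 8954 to 13953. It was 5.44% among ranks 13954 to 18953, 7.76% among ranks 18954 to 23953 and 10.1% among ranks 23954 to 28953. Among the last 1047 entries it was 10.8% (9.0 to 12.8%). The share of promoter summits was 33.1% in the first of these bins and 10.9% in the last, though not smaller at every step.

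**Figure D1:**
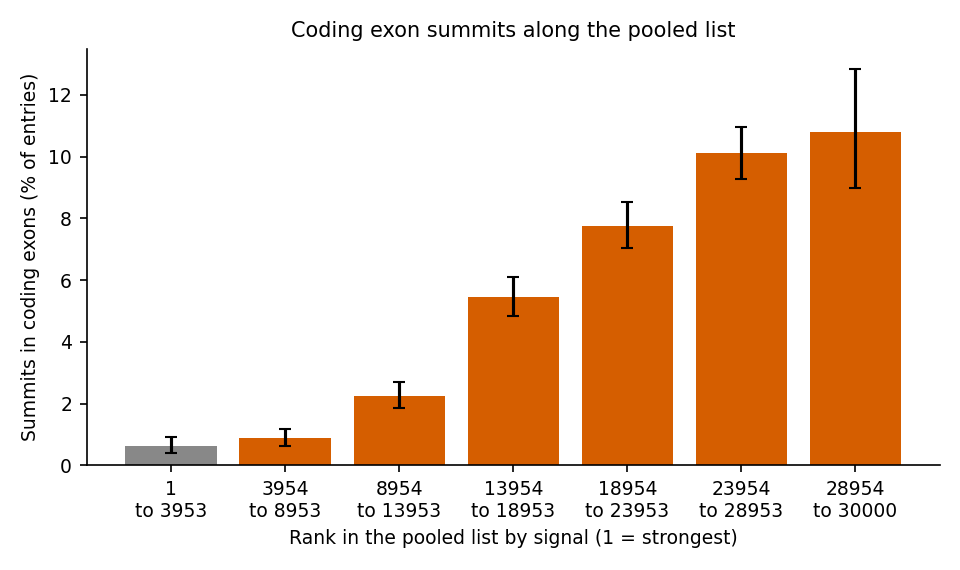
Share of pooled entries with a summit in a coding exon (y axis, %) in bins of rank in the pooled list by signal (x axis, 1 is the strongest). The grey bar holds the ranks of the thresholded list, orange bars hold lower ranks, and error bars are 95% exact binomial intervals; the share is 0.632% in the first bin and 10.8% in the last.

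A member was called matched in a replicate where a summit of that replicate's own list lay within 100 bp. Of the members, 66.9% (64.3 to 69.3%) were matched in replicate 2 and 31.7% (29.3 to 34.2%) in replicate 1. Both replicates matched 240 members (16.8%, 14.9 to 18.9%), replicate 2 alone 714 (50.04%), replicate 1 alone 213 (14.9%) and neither 260 (18.2%). Over all weaker entries the matched shares were 61.0% in replicate 2, 64.4% in replicate 1 and 36.3% in both. The coding entries thus had the lowest share matched in replicate 1 of the 7 places compared, and in introns, with the largest number of entries, it was 66.6%. Both replicates fed the pooled list, so these shares are a description.

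**Figure D2:**
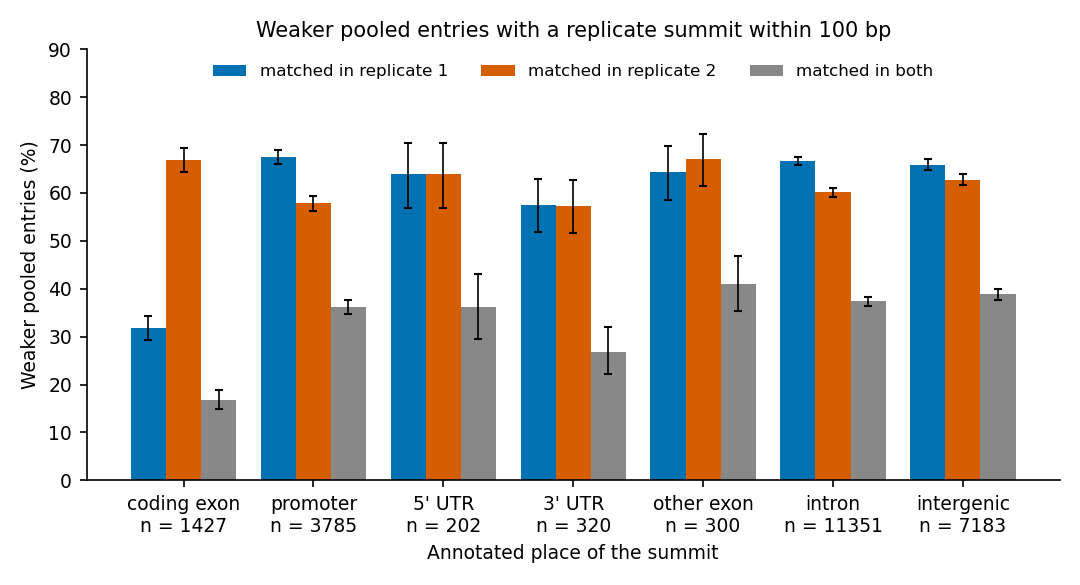
Weaker pooled entries with a summit of the replicate 1 list (blue), of the replicate 2 list (orange) or of both (grey) within 100 bp, as a percentage (y axis), by the annotated place of the summit (x axis, with n). Error bars are 95% exact binomial intervals; in coding exons 31.7% were matched in replicate 1 and 66.9% in replicate 2, while in introns the shares were 66.6% and 60.1%.

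The lower share in replicate 1 was present at equal pooled signal up to a signal of 80. Among entries of signal 30 to 40, replicate 1 matched 17.0% of 747 coding entries and 40.9% of 6606 entries elsewhere. Among those of 40 to 50, it matched 35.9% of 382 coding entries and 59.5% of 4930 elsewhere. Above 80, it matched 90.5% of 42 coding entries and 91.7% of 4577 elsewhere, which is about the same. In replicate 2 the coding entries of signal 30 to 40 were matched more often, at 58.0% against 37.8% elsewhere. The gap in replicate 1 was also present within bands of GC content. Among entries with 50 to 55% GC, it matched 26.5% of 272 coding entries and 68.6% of 4745 elsewhere.

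Few members ranked high in either replicate. Within the first 3953 ranks, as many as there are thresholded intervals, lay 3 members in replicate 1 and 3 others in replicate 2, among them CG5895 and fend in replicate 1 and Nrg and osa in replicate 2. That few members ranked there in either list, and none in both, follows largely from the rule, which removes what the IDR procedure kept. Across the 240 members matched in both lists, the signals of the replicates had a Spearman correlation of 0.30. It was 0.38 across 8679 other weaker entries and 0.55 across 3595 thresholded entries matched in both. The Pearson correlation of log2 signals was 0.39 for members, 0.37 for other weaker entries and 0.62 for thresholded entries. Members and other weaker entries thus changed order with the measure. These are correlations across entries, which share 2 libraries and are not independent replicates. The members were cut from the lower part of the list, which narrows their range of signal.

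**Figure D3:**
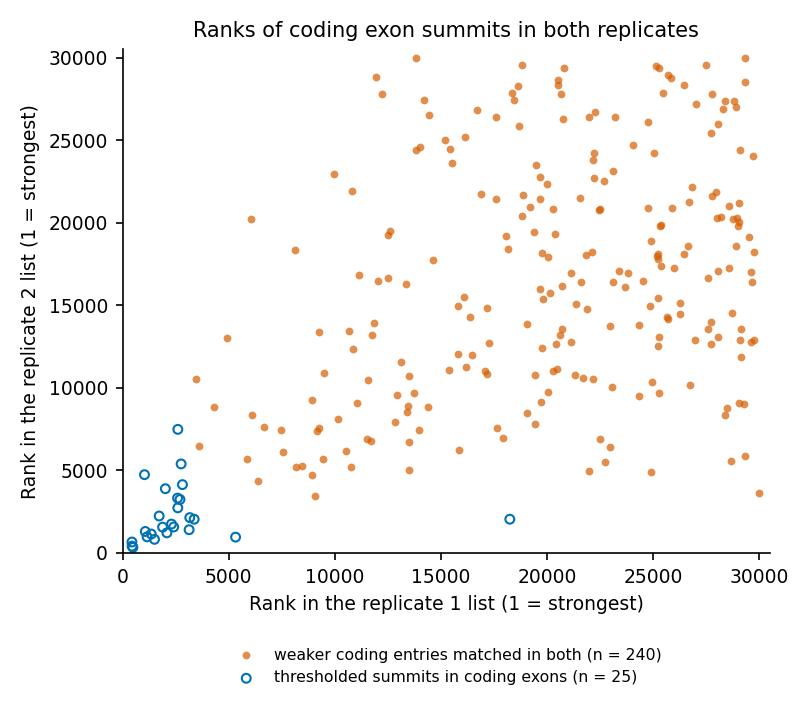
Rank in the replicate 1 list (x axis) against rank in the replicate 2 list (y axis), with 1 the strongest entry, for the 240 members matched in both lists (orange) and the 25 thresholded summits in coding exons (blue rings). The members spread over most of both lists and most rings lie near the corner, a split that the rule itself largely sets.

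Single members show the same range from even to uneven replicates. The member in CG5895, a gene with no role given here, had a signal of 85.8 in replicate 1 (rank 3593) and 51.3 in replicate 2 (rank 6498). The member in nmo, the Nemo protein kinase, had 59.3 in replicate 1 (rank 6363) and 65.3 in replicate 2 (rank 4328). The member in Nrg, the cell adhesion protein Neuroglian, had 46.3 in replicate 1 (rank 9078) and 74.4 in replicate 2 (rank 3434). The signals of different lists are not on a shared scale, so the ranks carry the comparison, and CG5895 ranked higher in replicate 1 while nmo and Nrg ranked higher in replicate 2.

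The member in lab, the Hox gene of the head, had a pooled signal of 103.5, with rank 8429 in replicate 1 and rank 5290 in replicate 2. It lay in coding exon 2 of 3, 562 bp from the nearest transcript start and 2395 bp from the nearest thresholded interval. The paired SoxB transcription factor genes Sox21b and Sox21a each held a strong member. The one in Sox21b had a pooled signal of 101.8 and ranks 9250 and 7545 in replicates 1 and 2, and the one in Sox21a had 94.95 and ranks 10146 and 8138. The member in Ets21C, an ETS-family transcription factor, had 108.4 and ranks 10769 and 5207. The member in Hph, the prolyl hydroxylase of the hypoxia response, had 122.8 and ranks 5867 and 5671. In siz, an exchange factor for Arf proteins, the values were 106.2 and ranks 10533 and 6153.

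The remaining genes of the 20 strongest members matched in both replicates were bif, fend, CG18265, plh, smal, CG32241, lbl, CG43901, RanBPM, Drl-2 and B4. Their pooled signals ran from 94.6 in B4 to 124.7 in bif, which encodes a protein of the actin cytoskeleton. lbl is a homeobox gene and Drl-2 a receptor of the Ryk family. In bif the summit lay in coding exon 2 of 5 and the whole 460 bp interval was coding, 28550 bp from the nearest thresholded interval. In smal it lay 573 bp from one, in the last of 11 coding exons.

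The gene of the factor itself held 1 member. The summit in l(3)neo38 lay in coding exon 4 of 5, 2421 bp from the nearest transcript start and 1581 bp from the nearest thresholded interval. Its pooled signal was 39.7, at pooled rank 22668, close to the median of the members. Replicate 1 had a signal of 23.3 there (rank 21557) and replicate 2 had 23.9 (rank 21512). The strain also carries tagged l(3)neo38, so the native gene and the transgene cannot be told apart there.

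All 1427 member intervals were 460 bp long, so the interval often ran past the exon. In 629 members (44.1%) the whole interval was coding, and the median coding part of an interval was 92.4%. The summit itself was coding in every isoform that spans it in 1284 members (89.98%), against 91.2% of eligible coding positions. Eligible positions are the coding positions that pass the same rule on transcript starts and 5' UTRs, 18.4 Mb in all, thresholded intervals included. The members occurred at 77.7 per Mb of this sequence.

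Along the coding sequence the members lay nearer to its start than eligible positions did. The first coding exon held 376 members (26.3%), against 17.6% of eligible positions. Of 4 equal parts of the coding sequence, the first held 23.5% of members and 17.2% of eligible positions, and the last 25.3% of members and 28.5% of eligible positions. The distance to the nearest transcript start did not separate them, with a median of 1887 bp for members and 1891 bp for eligible positions. The nearest start belonged to another gene for 41.1% of members and 40.1% of eligible positions. The median length of the coding exon was 830 bp for members and 821 bp for eligible positions. Neighbouring members share sequence where they lie close together, and 110 of the 1422 gaps between neighbouring summits were 500 bp or less.

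The members were rich in G and C. The median GC content of the window reaching 50 bp to either side of the summit was 57.4% in members, against 53.5% in eligible coding windows and 47.5% in all weaker entries. Windows under 40% GC held 18.7 members per Mb of eligible sequence, those of 50 to 55% held 57.2 per Mb, those of 60 to 65% held 151 per Mb, and those of 70% or more held 439 per Mb. The same order stood in each replicate's own list. Windows under 45% held 14.8 entries per Mb in replicate 1 and 48.8 in replicate 2, and windows of 65% or more held 190.6 per Mb in replicate 1 and 365.6 in replicate 2.

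The members also lay near thresholded intervals. Of the members, 43.2% lay within 5000 bp of one, against 17.1% of eligible coding positions, and the median distance was 6461 bp against 18154 bp. The rule bars overlap, which keeps summits out of the nearest bases, and 2 members lay within 500 bp. Beyond that, there were 274 members per Mb at 1000 to 2000 bp, 98.1 per Mb at 5000 to 10000 bp and 25.1 per Mb beyond 50000 bp. The share within 5000 bp was 44.9% in the list of replicate 1 and 34.6% in the list of replicate 2. Among all weaker entries of the pooled list it was 37.7%. It was larger than in members in weaker entries of 5' UTRs (50%) and of other exons, neither coding nor UTR (51%). It was smaller at promoters (38.5%), in introns (38.2%), in 3' UTRs (35.6%) and between genes (34.6%). Within 1000 bp lay 5.19% of members and 7.78% of all weaker entries. Nearness was thus not particular to coding exons.

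GC content and nearness each held within classes of the other. Within 5000 bp of a thresholded interval, there were 378.9 members per Mb in windows of 60% GC or more and 111 per Mb in windows under 50%. Beyond 20000 bp, there were 88.1 per Mb in windows of 60% or more and 13.8 per Mb in windows under 50%.

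**Figure D4:**
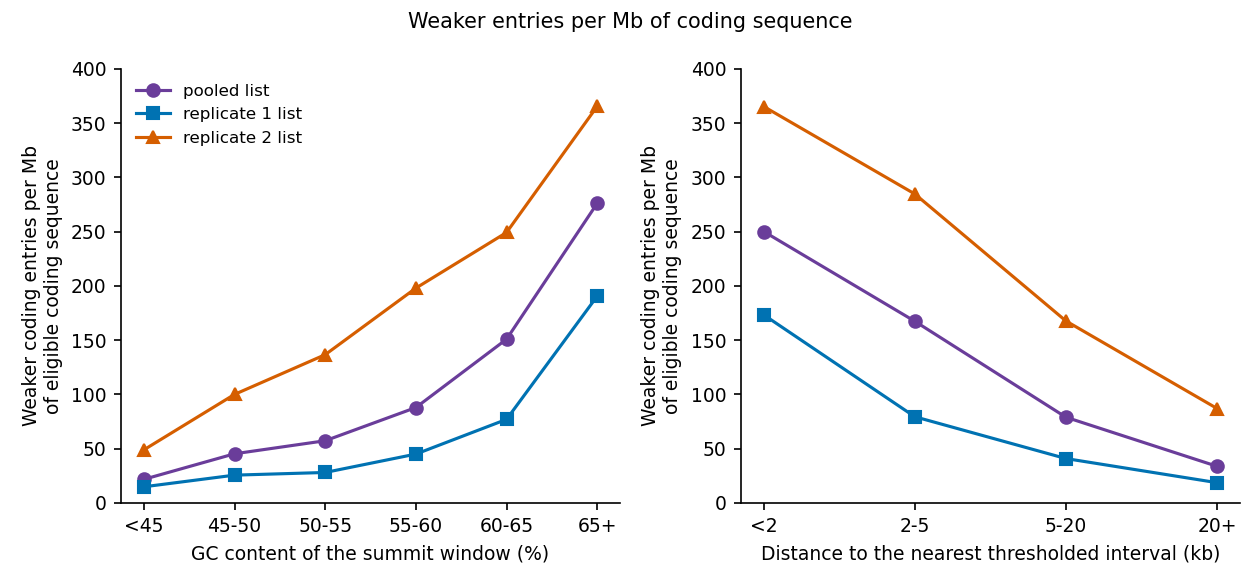
Weaker coding entries per Mb of eligible coding sequence (y axis) by GC content of the summit window (left) and by distance to the nearest thresholded interval (right), for the pooled list (purple circles, the members), the list of replicate 1 (blue squares) and the list of replicate 2 (orange triangles). All 3 lines are highest in the windows of 65% GC or more and within 2 kb of a thresholded interval, and the line of replicate 2 lies above that of replicate 1 throughout.

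Within coding sequence the summit itself stood out little from its surroundings. Each summit window was paired with an equally wide flank window, its centre 350 bp from the summit and also coding, which 1233 members had. The median GC content was 57.4% at the summit and 56.4% in the flank, with a median difference of 0.990 percentage points. GC was higher at the summit in 640 members, lower in 526 and equal in 67. For 1231 motifs, namely all 8-base words found in at least 1% of either set of windows and 12 chosen motifs, the share of windows holding them was compared by a two-sided exact McNemar test with Benjamini-Hochberg adjustment. None was higher at the summits at an adjusted p below 0.05 (0 of 1231, or 0%), and none was lower (0%), while 113 had an unadjusted p below 0.05. The smallest adjusted p in this exact test was 0.272, for AGCCTGGC, which stood in 2 summit windows and 19 flank windows. A share that misses the threshold in this test is not shown to be equal in summit and flank. Words near the 1% limit stood in too few windows to be called unless many other words were called too.

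None of the chosen motifs was called in that test either. CCCACCCC was in 8 summit windows and 3 flank windows (exact McNemar p = 0.227, adjusted p = 0.721). With so few windows it could not have been called, whatever their split, unless many other words were. Its missing call therefore decides nothing. CAGCAGCAG was in 82 summit windows and 71 flank windows (exact McNemar p = 0.379, adjusted p = 0.818). GGTGGTGG was in 54 summit windows and 32 flank windows (exact McNemar p = 0.0214, adjusted p = 0.526).

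Against coding sequence at large, the members' windows held more of these words. Both strands were searched, and CAGCAGC lies within CAGCAGCAG. CCCACCCC was in 0.631% of members (0.289 to 1.19%), against 0.107% of all 734923 eligible coding windows. It was in 2.07% of all weaker entries and in 6.37% of thresholded entries. CAGCAGCAG was in 6.59% of members (5.36 to 8.001%), against 2.78% of eligible coding windows and 1.39% of all weaker entries. Its share was about the same in the 202 weaker 5' UTR entries, at 6.93% (3.84 to 11.4%), so it was not particular to coding exons. In the replicates' own lists, CCCACCCC was in 0.769% of weaker coding entries in replicate 1 and 0.387% in replicate 2, and CAGCAGCAG in 7.82% and 4.58%. GGTGGTGG was in 4.41% of members and 2.06% of eligible coding windows. These words are rich in G and C, as the members are, so shares within GC bands are given too. Among windows of 60% GC or more CAGCAGCAG was in 9.68% of members (7.35 to 12.4%) and 6.12% of eligible windows. Under 50% GC it was in 4.29% of members (1.98 to 7.98%) and 0.884% of eligible windows. At 60% or more CCCACCCC was in 1.08% of members (0.396 to 2.33%) and 0.263% of eligible windows. Under 50% GC, 0 of 210 members held CCCACCCC and 0 held GGTGGTGG. The part of GC content in these shares was not tested. GAGAGAG, the letters of the GAGA element, was in 0.420% of members and 0.488% of eligible coding windows, against 2.71% of all weaker entries. CAGCTG, an E-box, was in 9.74% of members, 7.60% of eligible coding windows and 5.23% of all weaker entries. A match of letters does not show a bound site.

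The members lay in 1038 of 13945 protein-coding genes (7.44%), and 280 genes held more than 1. Genes with a member had longer coding sequences, with a median of 2.15 kb against 1.19 kb over all protein-coding genes. A thresholded summit lay in or within 2000 bp of 51.9% of the genes with a member, against 19.4% of the 12260 genes with eligible coding sequence. Genes are not replicates, and long coding sequences offer more places for an entry, so counts of the gene lists are also given per length.

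Alh, the fly homolog of the human AF10 family of PHD finger proteins, held the most members, with 6. Their pooled signals ran from 33.7 to 83.1, and 4 of the 6 were matched in replicate 2, 2 in replicate 1 and 1 in both. klar, which links nuclei and lipid droplets to microtubule motors, held 5 with signals of 32.0 to 88.1, and no summit was matched in both replicates. pum, the translational repressor Pumilio, held 5 with signals of 32.3 to 72.9, of which 2 were matched in both. Su(z)2, a Polycomb group gene, held 5 with signals of 35.7 to 60.2, all in coding exon 4. CG43736 held 5 with signals of 30.9 to 62.4, and so did Hr4, a nuclear receptor gene, with 31.5 to 57.9. These genes are long, with 4.19 to 8.09 kb of coding sequence, and each had 6 to 17 thresholded summits in it or within 2000 bp.

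Per kb of coding sequence, among genes with 3 or more members, BBS8 and corto led with 1.82 each, followed by inv with 1.74, Sox21b with 1.70 and fz2 with 1.61. corto encodes a chromatin protein, inv the homeobox partner of en, and fz2 a receptor for Wingless. The 3 members of corto lay in its single coding exon, had pooled signals of 85.4, 40.1 and 37.4, and had windows of 68.3 to 78.2% GC. BBS8, a ciliary gene, had no thresholded summit in it or within 2000 bp, and its 3 members had signals of 31.0 to 40.3, none matched in both replicates. fz2 had 18 such thresholded summits, and its 4 members had signals of 32.4 to 49.998.

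Genes that regulate embryonic patterning held members more often than all protein-coding genes did. Of 39 homeobox genes, which pattern the body axis and cell types, 21 held a member, at 571 members per Mb of eligible coding sequence. Of 29 segmentation genes 15 did, at 458.6 per Mb, and of 37 C2H2 zinc finger regulators 19 did, at 321 per Mb. The homeobox and C2H2 lists hold chosen regulators, not all genes of these classes, and the C2H2 list includes l(3)neo38 itself. Over all protein-coding genes the share was 7.44% and the density 77.7 per Mb. The 3 lists overlap, and joined they hold 89 genes, of which 46 held a member. The lists were chosen with earlier results known, so these are counts with no test.

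Among the 39 homeobox genes of the list, which does not hold lbl or ct, the strongest members lay in lab, Scr and tup. The gene ct held 4 members, the strongest with a pooled signal of 57.2. Scr, the Hox gene of the labial and first thoracic segments, held 2, the stronger with a pooled signal of 71.4 and ranks 13718 in replicate 1 and 9670 in replicate 2. The stronger of the 2 in tup, a LIM-homeodomain gene, had 65.4, with no match in replicate 1 and rank 7759 in replicate 2. Of the 8 Hox genes 7 held a member, a subset looked at after its values were seen, with 9 members in all and Abd-B the exception. Among the segmentation genes, the strongest members lay in hh, nkd and ptc, each matched in 1 replicate only. The one in btd, also on that list, was close to that in ptc. The member in hh, the ligand Hedgehog, had a pooled signal of 72.2, with no match in replicate 1 and rank 5311 in replicate 2. The strongest of 3 in nkd, an inhibitor of Wingless signalling, had 72.2, with rank 10609 in replicate 1 and no match in replicate 2. The strongest of 4 in ptc, the receptor of Hedgehog, had 63.5, with no match in replicate 1 and rank 7982 in replicate 2. Among the C2H2 genes, gl, which specifies photoreceptors, held 2 with the stronger at 67.3, btd, a gap gene of the head, held 2 with the stronger at 63.4, and erm held 1 at 54.97. The strongest members of gl, btd and erm were each matched in 1 replicate only.

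In these 3 lists the coding sequence was itself rich in G and C and close to thresholded intervals. The median GC content of eligible windows was 59.4% in homeobox genes, 57.4% in segmentation genes and 57.4% in C2H2 genes, against 53.5% over all genes. Of the eligible positions, 54.0% lay within 5000 bp of a thresholded interval in homeobox genes, 47.9% in segmentation genes and 40.4% in C2H2 genes, against 17.1% over all genes. The part of both in the counts was not tested. Homeobox genes had the highest density of the 16 lists in each replicate's own list too. Segmentation genes were close behind, at 312.7 per Mb in replicate 1 and 604.5 per Mb in replicate 2. In the list of replicate 1, 15 of 39 homeobox genes held a weaker coding entry (331.7 per Mb), against 4.55% of all genes (42.4 per Mb). In the list of replicate 2, 20 of 39 did (608.2 per Mb), against 13.7% of all genes (154.5 per Mb). By share of genes in replicate 2, homeobox genes (51.3%) were below matrix and adhesion genes (57.1%), C2H2 genes (56.8%) and segmentation genes (51.7%).

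In the Polycomb and trithorax groups, which keep Hox genes off or on, 7 of 25 genes held a member, at 153 per Mb. The strongest lay in osa, part of the Brahma chromatin remodeller, with a pooled signal of 87.3 and ranks 29980 in replicate 1 and 3641 in replicate 2. The member in ph-p, a Polycomb complex subunit, had 73.4 and ranks 11558 and 10474, and the strongest of 4 in Psc, another subunit, had 68.8 and ranks 16077 and 15499. The member in osa was thus uneven between the replicates, while those in ph-p and Psc were even. In the Notch list 6 of 21 genes did, at 268 per Mb, led by the coactivator mam (58.1), the repressor E(spl)m7-HLH (55.1) and the protease kuz (53.7). In the list of replicate 1 the Polycomb and trithorax genes had 117 entries per Mb and the Notch genes 179 per Mb, and in that of replicate 2 they had 252 and 476 per Mb. The Notch genes were thus under the C2H2 genes in replicate 1 (232 per Mb) and above them in replicate 2 (387 per Mb). In the matrix and adhesion list 7 of 21 genes did, at 82.7 per Mb, against 77.7 per Mb over all genes. That list lacks dpy (dumpy), whose listed name had no match. It held 1 member in 68.8 kb of eligible coding sequence, beside 13 members in 157 kb for the list. With dpy the density of the list would be lower, and under that of all genes. For the list as used, the replicates differed in direction. It had 19.1 per Mb against 42.4 over all genes in replicate 1, and 197 per Mb against 154.5 in replicate 2. Nrg led that list, followed by the collagen IV genes Col4a1 (58.9) and vkg (55.4).

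The other lists with a member were under the pooled density of all genes. Ion channel genes held members in 5 of 22 genes, at 60.8 per Mb, with nompC, a channel of touch and hearing, at 57.4, Shaw, a potassium channel, at 40.003 and Ca-alpha1T, a calcium channel, at 37.3. The actins, tubulins and myosins held them in 4 of 26, at 57.3 per Mb, with alphaTub84B at 66.3, Act87E at 40.6 and Act5C at 39.3. Chemoreceptors and odorant binding proteins held them in 6 of 230, at 34.8 per Mb, led by Gr47b, Or22c and Ir60b at 49.9, 40.4 and 38.0. Cuticle proteins held them in 2 of 118, Cpr50Ca and Cpr100A, at 47.7 per Mb. Hsc70-4 alone did among 24 heat shock genes (33.8 per Mb), and eEF1alpha1 alone among 18 translation factors (35.1 per Mb). These densities rest on 1 to 7 members a list. In the list of replicate 1 the heat shock genes had 67.6 per Mb and the cuticle genes 47.7 per Mb, above the 42.4 per Mb of all genes.

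No member lay in any of 92 cytosolic ribosomal protein genes, 12 glycolytic genes, 111 histone genes or 15 yolk, chorion and vitelline genes. These genes offer little room under the rule, with 16.6 kb, 13.4 kb, 9.89 kb and 4.57 kb of eligible coding sequence for the 4 lists in that order. All 12 glycolytic genes had some. Only 58 of the ribosomal, 27 of the histone and 12 of the yolk, chorion and vitelline genes had any, so most of the histone genes could not hold a member. Of the eligible sequence, 34.5% in the ribosomal list and 35.6% in the glycolytic list lay within 5000 bp of a thresholded interval, against 17.1% over all genes. In the histone list and the yolk, chorion and vitelline list it was 0%.

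**Figure D5:**
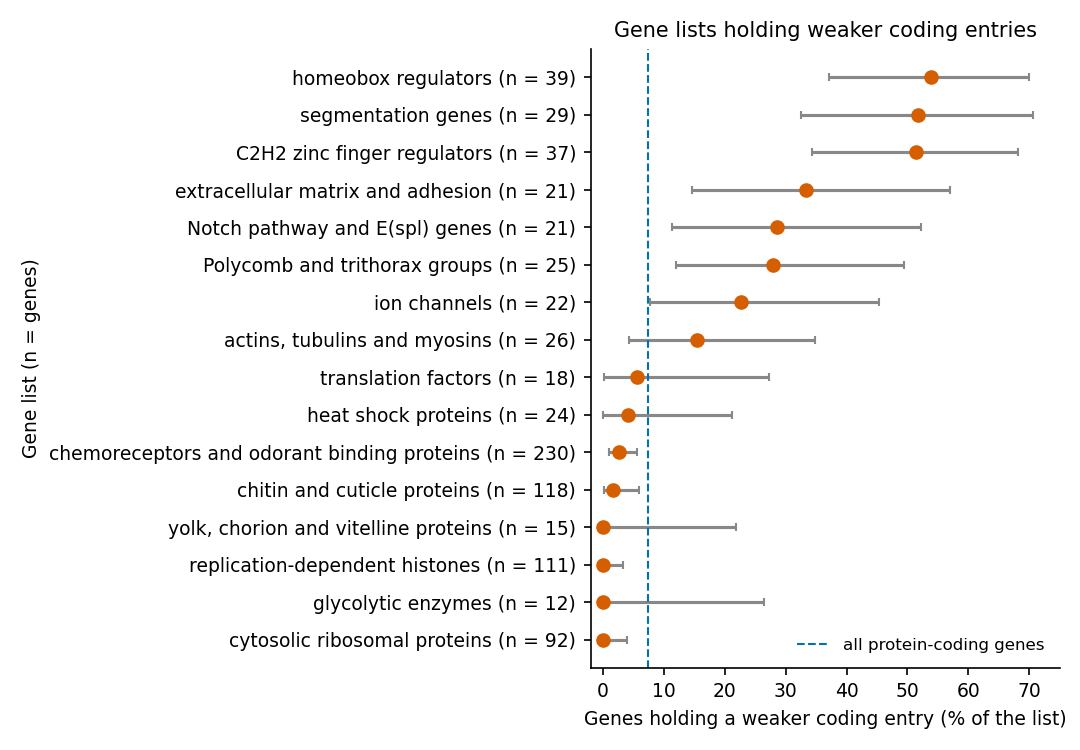
Share of each list's genes that hold a member (x axis, %), with 95% exact binomial intervals, for 16 gene lists (y axis, n is the number of genes, those without eligible sequence included). The dashed line marks 7.44%, the share over all protein-coding genes. The chosen homeobox regulators, segmentation genes and C2H2 zinc finger regulators lie at 51.4 to 53.8%, and 4 lists lie at 0.

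The thresholded summits in coding exons were few, and some lay in genes that also held members. Their pooled signal had a median of 219.1. That they were stronger follows from the rule, since the thresholded list began at a signal of 140.7 and the members ended at 139.2. All 25 were matched in both replicates, against 90.9% of all thresholded entries, which the IDR procedure kept for ranking alike in the replicates. The strongest lay in RhoGEF3 (453.6), Snx27 (424.8) and CG10631 (408.5). CG30089 held 4 members and gukh 3 beside a thresholded coding summit. zld, the gene of the early activator Zelda, held 1 member beside a thresholded summit of signal 222.1, and pb, a Hox gene, 1 beside one of 144.8. hth and mid held a thresholded coding summit and no member. In Socs36E the replicates were uneven even above the threshold, with rank 18240 in replicate 1 and rank 2042 in replicate 2. The thresholded coding windows had a median of 60.4% GC, against 50.5% over all thresholded entries, so high GC was shared by coding summits on both sides of the threshold.

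Across the chromosome arms other than chromosome 4 the members were spread fairly evenly. Their density was 68.2 per Mb of eligible coding sequence on 2L, 89.99 on 2R, 78.2 on 3L, 74.9 on 3R and 83.2 on X. Chromosome 4 held 0 members in 0.253 Mb of eligible coding sequence, and only 14 weaker entries of any kind.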

How the data were processed

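Peak lists on the dm6 build were used, in the narrowPeak layout. Per the file descriptions, the pooled list was derived from the alignments of both replicates. Each replicate list was derived from that replicate's alignments and a further file shared by both, and the thresholded list from the replicate lists and the pooled list. No source used here names the caller, its version or the threshold of the IDR procedure. The signal value, the −log10 q value, the score and the summit offset (a position) are those the authors deposited; q values and scores were not used. No read counts were used, so depth is unknown.

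Summits were placed in the Ensembl 115 annotation with Python 3.11.15, without the starts of annotated transposable elements. A summit within 500 bp of a start was a promoter summit, and 5' UTRs took precedence over coding exons, which took precedence over what remained. Eligible coding windows were taken every 25 bp. Exact McNemar tests and binomial intervals used SciPy 1.17.1, with Benjamini-Hochberg adjustment of the McNemar tests over all 1231 motifs at 0.05. The motif comparison alone was tried on simulated data, with a word placed in random coding windows. That word was more frequent than CCCACCCC was in the members, so the trial does not cover words that rare. The members, lists, motifs and alternatives were chosen with earlier results of these data known. Named genes are l(3)neo38, those of the 20 strongest members matched in both replicates, the 5 with most members in number and per kb, up to 3 of each list, and those of thresholded coding summits. Hr4, tied with others in number, and the Hox genes were added after their values were seen. So were tna, whose sequence is printed, and ct and dpy. Older symbols gave 5 of the list names, and 3 had no match. These were cut in the homeobox list, Dl in the Notch list and dp in the matrix and adhesion list. Their genes were left out of those lists. Roles of genes are background. Alternatives are given at the end.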

Additional observations from a re-analysis of the deposited data

How the results depend on the processing

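Depth is unknown, only 2 replicates of 1 group were made, and genes and entries are not replicates, so no value here measures spread between embryos. No paired analysis was possible because all samples form 1 group. The replicates decided the size of the set: using either replicate's list instead of the pooled one gave 780 to 2840 members, 3.14 to 11.6% of the weaker entries, in 635 to 1909 genes. Their shares within 5000 bp of a thresholded interval were 34.6 to 44.9%, and the list shares were 2.61 to 6.96% for chemoreceptors, 14.3 to 57.1% for matrix and adhesion genes, 4.55 to 27.3% for ion channels and 0 to 11.1% for translation factors. The members' share of weaker entries was 6.44% with a promoter distance of 250 bp, 4.48% with 1000 bp, 5.23% with summits coding in every isoform and 4.71% with summits in no intron, 3' UTR or non-coding exon. The share matched in both replicates was 10.5% at 50 bp, 24.3% at 200 bp and 30.9% among the stronger 713 members. Those 713 gave 49.5% within 5000 bp of a thresholded interval, 0.870% for chemoreceptors, 0% for cuticle proteins and 0% for heat shock genes. A promoter distance of 1000 bp gave 0.870% for chemoreceptors and 0% for translation factors. CCCACCCC was in 1.54% of windows of 100 bp to either side. The GC difference between summit and flank was 0 with windows of 25 bp to either side. It was 4.95 percentage points with the flank on a random side whether coding or not, and 89 motifs were then higher and 61 lower at the summits, so the lack of calls holds for coding flanks only; the other 7 settings gave 0 higher. The other values, 92 of 121, stayed within 1.5 times for counts, within the 95% interval for shares, or less than 1 base of the window away for the GC difference. For median GC the limit was the standard deviation of the 2 replicates' own values. Those values were judged against it too, so their staying within it says little. Counting starts of transposable elements, replacing the list for the gene lists, GC and distance, and the stronger members for GC and distance were added after seeing the data.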
